A study of Mus musculus with 18 samples.

Results

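The genes described here are 31 that make cholesterol, move it within the cell and export it, chosen by symbol rather than by any measured value. All 31 were found among the 56748 gene IDs counted, and all 31 passed the filter on low counts that left 13690 genes to test. They comprise 18 synthesis enzymes, 4 genes that regulate the transcription factor SREBP2 or encode it, 4 genes of intracellular transport and storage, and 5 genes of the liver X receptors (LXR) and sterol efflux. Their transcripts were counted in 18 RNA-seq libraries, each made from splenic CD8 T cells that had been sorted by flow cytometry. All mice are labelled WT, and each of 3 diets has 6 libraries. HFD mice were fed high fat food for 12 weeks. SW (switched) mice had 6 weeks of the high fat food followed by 6 weeks of normal food, and ND mice ate normal food throughout the 12 weeks. The labels name neither strain nor age. Nor do they state that each library came from a different animal, so part of the spread behind the p-values may be technical.

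Cells sense cholesterol in the membrane of the endoplasmic reticulum. When sterols are scarce, SCAP carries SREBP2 to the Golgi apparatus, where it is cut, and its released part switches on the enzymes of the mevalonate and sterol pathway. When sterols are plentiful, INSIG proteins hold SCAP back, while oxysterols activate LXR, which switches on the exporters ABCA1 and ABCG1 and the ubiquitin ligase MYLIP. T cells raise sterol synthesis when they are activated and divide, and LXR signalling is known to restrain their proliferation.

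The stretches upstream of the transcription start of 4 genes are shown to set both branches side by side. Hmgcs1, Sc5d and Insig1 stand for the SREBP2 branch and Abca1 for the LXR branch. Windows of 250 bases before the start (RefSeq, GRCm38.p6) were held for 25 of the 31 genes, and each is shown 5′ to 3′ on the strand of its gene. The window of Insig1 is cut to 201 bases where the annotated gene begins. Capitals mark the sterol regulatory element TCACNCCAC and the CCAAT box, which reads ATTGG on the other strand.
Hmgcs1, chr13:119690101-119690350, plus strand: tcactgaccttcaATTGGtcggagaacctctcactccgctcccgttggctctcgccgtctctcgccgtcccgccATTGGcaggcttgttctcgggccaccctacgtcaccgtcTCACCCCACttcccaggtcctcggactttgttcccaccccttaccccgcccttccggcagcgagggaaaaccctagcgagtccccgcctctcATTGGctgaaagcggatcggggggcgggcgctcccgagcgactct
Sc5d, chr9:42264301-42264550, minus strand: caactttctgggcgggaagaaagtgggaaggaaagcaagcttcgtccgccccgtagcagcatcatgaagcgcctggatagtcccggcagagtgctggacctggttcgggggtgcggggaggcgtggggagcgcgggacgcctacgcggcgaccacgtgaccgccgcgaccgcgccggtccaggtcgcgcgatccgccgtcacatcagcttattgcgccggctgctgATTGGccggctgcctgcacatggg
Insig1, chr5:28071162-28071362, plus strand: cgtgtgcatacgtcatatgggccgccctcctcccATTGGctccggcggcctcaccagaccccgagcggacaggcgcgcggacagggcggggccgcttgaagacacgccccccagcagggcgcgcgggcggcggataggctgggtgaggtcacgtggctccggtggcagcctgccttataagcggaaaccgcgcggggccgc
Abca1, chr4:53159896-53160145, minus strand: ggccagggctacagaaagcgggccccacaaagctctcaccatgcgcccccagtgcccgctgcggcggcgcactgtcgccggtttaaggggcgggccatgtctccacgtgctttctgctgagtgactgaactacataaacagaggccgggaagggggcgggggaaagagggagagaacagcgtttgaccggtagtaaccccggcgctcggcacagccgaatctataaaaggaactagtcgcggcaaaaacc

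Of the 25 genes with a window, Hmgcs1 alone held TCACNCCAC on either strand, its first base lying 137 bases before the start on the gene's own strand. The element was in the windows of 1.22% of the 27025 genes in the RefSeq table. A CCAAT box, which binds NF-Y, a factor that acts beside SREBP2 at sterol genes, was in the windows of 20 of the 25 genes and of 14 of the 15 synthesis enzymes with a window, against 37.5% of all genes. No match of CCAAT overlapped the TCACNCCAC of Hmgcs1, the only match of that element in these windows. The GC box GGGCGG was in 21 of the 25 genes and in 14 of the 15 enzymes, against 35.4% of all genes. The LXR repeat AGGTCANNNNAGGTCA was in 0 of the 25 and in 4 genes of the whole table. It was searched without mismatches and is that rare, so its absence says nothing of looser repeats, in Abca1 or elsewhere. These are matches of letters in short windows and say nothing of binding.

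The libraries held 11947339 to 16398340 counted reads each. The 31 genes took up 0.161 to 0.186% of them in HFD libraries, 0.158 to 0.187% in SW libraries and 0.163 to 0.184% in ND libraries. Markers of the cells matched their label: Cd8a stood at 1369 to 1635 CPM (counts scaled to library size) and Cd4 at 0.0801 to 1.32 CPM. Features of the libraries other than diet also bear on the results. On the first principal component of all tested genes (13.4% of the variance), HFD replicate 4 lay apart at 55.0, with all other libraries between -8.83 and 6.31. Within each diet, replicates 1 and 2 lay above replicates 3 to 6 on the second principal component, and the labels do not say what the numbers mark. Red cell transcripts, such as those of haemoglobin, summed to 11.5 to 336 CPM in HFD libraries, with the highest sums in HFD replicates 4 (336 CPM) and 1 (160 CPM), to 29.7 to 86.1 CPM in SW libraries and to 14.3 to 40.1 CPM in ND libraries.

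Levels per transcript length spread widely between genes and differed little between diets. In FPKM, fragments scaled to transcript length and depth, the most abundant was Npc2, the soluble lysosomal protein that takes up freed cholesterol, at 94.0 ± 4.0 in HFD cells, 90.0 ± 4.1 in SW cells and 93.0 ± 5.5 in ND cells (SD, n = 6 each). Nr1h2, which encodes LXRβ, followed at 44.7 ± 3.0 FPKM in HFD cells, 43.8 ± 2.0 in SW cells and 44.4 ± 1.3 in ND cells. Srebf2, the gene of SREBP2 itself, had 35.2 ± 3.2 FPKM in HFD cells, 34.5 ± 6.0 in SW cells and 33.3 ± 2.8 in ND cells. The 3 means of each of these genes lay within the spread of its libraries.

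The synthesis enzymes stood far lower, between 0.516 FPKM for Fdps and 17.3 FPKM for Ebp on the normal diet. Fdps makes farnesyl diphosphate, and its level is uncertain: 5 other genes match its transcripts at 95% identity or more over at least 200 bases, and one of them, the pseudogene Gm3571, held 548 counts over the 18 libraries against 416 for Fdps. Acat2, Fdft1, Hmgcs1, Idi1, Npc1 and Scap also share such stretches with other genes. Tcp1, with 49879 counts over the 18 libraries, shares 445 bases with Acat2, which had 5539. Ctsb, with 33759, shares 774 with Fdft1, which had 4532, and Rmc1, with 18769, shares 323 with Npc1, which had 11808. The other genes held 12 counts for Hmgcs1, 124 for Scap and at most 63 each for Idi1. Cyp51 overlaps Akap9 on the opposite strand, which these libraries are not stated to separate. Tm7sf2, with 2613 counts over the 18 libraries, overlaps Vps51 on its own strand, which had 13012. Of the efflux genes, Mylip had 25.9 ± 3.5 FPKM in HFD cells, 26.7 ± 2.3 in SW cells and 28.5 ± 1.8 in ND cells. The exporter Abcg1 had 18.6 ± 1.0 FPKM in HFD cells, 17.2 ± 0.7 in SW cells and 17.2 ± 0.8 in ND cells. Its partner Abca1 was lower per length, at 3.19 ± 1.14 FPKM in HFD cells, 2.56 ± 0.31 in SW cells and 2.77 ± 0.36 in ND cells. LXRα, encoded by Nr1h3, was close to the lower end of what the depth could measure, at 0.829 ± 0.267 FPKM in HFD cells, 0.735 ± 0.230 in SW cells and 0.589 ± 0.207 in ND cells.

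**Figure D1:**
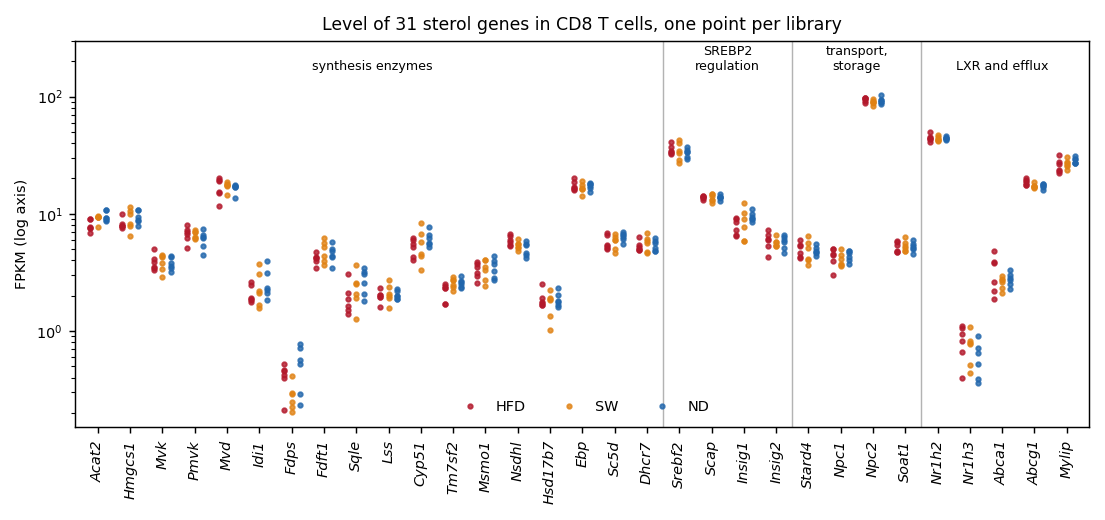
Level of each of the 31 genes in FPKM on a log axis, 1 point per library, with HFD, SW and ND side by side and vertical lines between the 4 functional groups. The points of the 3 diets overlap for every gene, and Npc2, Nr1h2 and Srebf2 stand highest.

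The first comparison asked what 12 weeks of high fat diet did to these genes. None of the 31 was called in HFD against ND at an adjusted p under 0.05 (edgeR), where 1.62% of all tested genes were called, and DESeq2 and limma-voom also called 0 of the 31. At an unadjusted p under 0.05 there were 6 of the 31, or 19.4%, beside 14.9% of all tested genes. The ranges of CPM in HFD and ND libraries overlapped for all 31 genes, while 1.67% of all tested genes had ranges that did not. The median log2 fold change of the 31 was -0.02, beside 0.01 over all tested genes. A missed threshold does not show equal levels, and the 95% intervals set the limit: 25 of the 31 lay within a 1.5-fold change either way and 30 within a 2-fold change.

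Among the synthesis enzymes, 12 of 18 had a fold change below 0 in HFD against ND and 6 above, with a median of -0.12. Over all tested genes, 6512 of 13690 were below 0. The enzymes varied together over libraries, as given below, so their signs are not separate observations in any of the comparisons. Leaving out HFD replicates 1 and 4, in which red cell transcripts were highest, put 16 of 18 below 0 with a median of -0.14. Those 2 libraries also had the highest summed enzyme levels of the HFD libraries (382 and 352 CPM). Leaving them out was therefore bound to lower the summed HFD level. With the level of macrophage markers as a covariate 13 of 18 were below 0 and the median was -0.06, and limma on log2(FPKM + 0.1) and log2(FPKM + 1) gave medians of -0.06 and -0.05 with 11 of 17 below 0 in each. The lowest p belonged to Acat2, the cytosolic thiolase that joins 2 acetyl-CoA at the entry of the pathway. It ranged from 16.7 to 22.3 CPM with a median of 18.7 in HFD libraries, from 18.6 to 23.3 CPM with a median of 23.3 in SW libraries and from 21.3 to 26.7 CPM with a median of 22.7 in ND libraries. Every HFD library was below the ND mean, and the HFD and ND ranges shared only a narrow stretch. Its log2 fold change was -0.27 (SE 0.09) with an adjusted p of 0.107 (edgeR). Without HFD replicates 1 and 4 it passed the threshold, at -0.38 with an adjusted p of 0.0272. This leave-out was chosen after the data were seen, and over the other alternatives that adjusted p ran between 0.0528 and 0.423. The stretch that Acat2 shares with Tcp1, named above, may limit its values.

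Sqle, squalene epoxidase and one of the controlled steps of the pathway, had the lowest fold change of the enzymes. Its levels were 7.57 to 16.2 CPM with a median of 9.40 in HFD libraries, 6.70 to 19.4 CPM with a median of 12.2 in SW libraries and 9.77 to 18.3 CPM with a median of 15.2 in ND libraries. HFD replicate 1 sat among the higher ND libraries, and the other 5 HFD libraries were below the ND mean. The difference was -0.49 (SE 0.23) on the log2 scale, with an adjusted p of 0.328 (edgeR) and an interval from -0.97 to -0.01.

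Hmgcs1, which makes HMG-CoA, ranged from 33.8 to 44.1 CPM with a median of 35.0 in HFD libraries, from 28.1 to 50.2 CPM with a median of 40.01 in SW libraries and from 34.6 to 48.3 CPM with a median of 40.9 in ND libraries. HFD libraries other than replicate 1 lay close together at the low end of the ND range. The fold change in HFD against ND was -0.20 (SE 0.12) with an adjusted p of 0.426. Idi1, the isomerase of the 5-carbon isoprene units, had 6.01 to 8.90 CPM with a median of 6.44 in HFD libraries, 5.21 to 12.5 CPM with a median of 7.26 in SW libraries and 6.22 to 13.5 CPM with a median of 7.77 in ND libraries. Its fold change was -0.32 (SE 0.21) with an adjusted p of 0.493.

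A pair of enzymes of the late sterol steps had small p-values of opposite sign. Nsdhl, which removes the C4 methyl groups together with Msmo1 and Hsd17b7, had 14.6 to 18.7 CPM with a median of 16.1 in HFD libraries, 13.2 to 17.2 CPM with a median of 14.8 in SW libraries and 11.7 to 16.1 CPM with a median of 13.9 in ND libraries. All 6 HFD libraries were above the ND mean, with a fold change of 0.24 (SE 0.10) and an adjusted p of 0.232. Tm7sf2, a sterol C14 reductase, had 7.24 to 10.8 CPM with a median of 9.87 in HFD libraries, 9.28 to 12.2 CPM with a median of 11.0 in SW libraries and 9.96 to 12.4 CPM with a median of 10.9 in ND libraries. All 6 HFD libraries were below the ND mean, with a fold change of -0.25 (SE 0.11) and an adjusted p of 0.316.

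Sc5d, the C5 desaturase, had 23.5 to 32.0 CPM with a median of 25.04 in HFD libraries, 21.6 to 31.3 CPM with a median of 28.0 in SW libraries and 26.2 to 33.1 CPM with a median of 30.5 in ND libraries, a fold change of -0.17 (SE 0.09) in HFD against ND. Pmvk, phosphomevalonate kinase, had 8.30 to 13.3 CPM with a median of 11.3 in HFD libraries, 10.1 to 11.9 CPM with a median of 11.0 in SW libraries and 7.47 to 12.3 CPM with a median of 10.4 in ND libraries, a fold change of 0.14 (SE 0.12). The remaining enzymes, Mvk, Mvd, Fdft1, Lss, Cyp51, Msmo1, Hsd17b7, Ebp and Dhcr7, lay between -0.25 (Cyp51) and 0.03 (Mvk), and the sparse Fdps at -0.33.

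Of the genes around SREBP2, Insig1 is both its inhibitor and one of its targets. Insig1 ranged from 19.2 to 27.4 CPM with a median of 23.6 in HFD libraries, from 17.3 to 36.5 CPM with a median of 25.1 in SW libraries and from 25.6 to 32.5 CPM with a median of 27.6 in ND libraries. All 6 HFD libraries were below the ND mean. The difference was -0.28 (SE 0.15), with an adjusted p of 0.401 (edgeR). Srebf2 had 224 to 282 CPM with a median of 236 in HFD libraries, 187 to 294 CPM with a median of 235 in SW libraries and 205 to 259 CPM with a median of 236 in ND libraries. Its fold change of 0.07 (SE 0.09) and those of Scap (-0.00, SE 0.05) and Insig2 (0.04, SE 0.10) were smaller than 1 SE.

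The 4 transport and storage genes had fold changes from -0.03 to 0.01 in HFD against ND, with no interval bound beyond 0.25 in size. Npc1, the membrane partner of Npc2 at the lysosome, had 33.1 to 54.5 CPM with a median of 49.1 in HFD libraries, 39.6 to 54.5 CPM with a median of 42.6 in SW libraries and 40.6 to 52.9 CPM with a median of 48.8 in ND libraries. HFD replicate 4 was the lowest of the 18. Stard4, a carrier of free cholesterol, and Soat1, which esterifies cholesterol for storage, differed between HFD and ND by 0.01 (SE 0.12) and -0.02 (SE 0.08).

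Among the LXR and efflux genes, 4 of 5 were above 0 in HFD against ND and the median was 0.10. Abcg1 had 124 to 140 CPM with a median of 130 in HFD libraries, 116 to 129 CPM with a median of 120 in SW libraries and 112 to 127 CPM with a median of 123 in ND libraries. The HFD libraries were all above the ND mean, the ranges overlapped at their edges, and the fold change was 0.10 (SE 0.05) with an adjusted p of 0.309 (edgeR). Mylip, which marks lipoprotein receptors for breakdown, stood on the other side of 0, with 70.6 to 98.3 CPM and a median of 78.3 in HFD libraries, 72.9 to 93.7 CPM and a median of 83.3 in SW libraries and 84.7 to 98.5 CPM and a median of 88.2 in ND libraries. In HFD against ND its fold change was -0.15 (SE 0.07) with an adjusted p of 0.328.

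Abca1 was the exporter whose libraries disagreed most. Its level was 18.7 to 47.9 CPM with a median of 31.9 in HFD libraries, 21.02 to 29.8 CPM with a median of 26.3 in SW libraries and 22.7 to 33.1 CPM with a median of 27.8 in ND libraries. The 3 HFD libraries (replicates 1, 2 and 3) were above every ND and SW library, and HFD replicates 4 and 5 were below every ND library. The SD was 11.2 CPM in HFD, 3.2 CPM in SW and 3.7 CPM in ND, and the fold change of 0.19 (SE 0.18) had an adjusted p of 0.680. It was 0.04 without HFD replicate 1 and -0.04 with the level of macrophage markers as a covariate. Macrophages express much Abca1, and the 12 markers of that type summed to 24.95 to 39.3 CPM in HFD libraries, 21.1 to 30.2 CPM in SW libraries and 18.4 to 32.1 CPM in ND libraries, with Adgre1, C1qa, C1qb, C1qc, Cd5l, Spic and Mertk at 0 in some libraries. Over the 18 libraries Abca1 and that sum had r = 0.457 and rho = 0.317 (permutation p 0.0577 and 0.199, adjusted over 93 relations 0.954 and 0.953). Their r was 0.131 within replicates 3 to 6, 0.837 within replicates 1 and 2, and 0.196 without ND replicate 3 and HFD replicate 1, the farthest in the markers. For Abcg1 and the same sum r was 0.512 and rho 0.583 (permutation p 0.0299 and 0.0124, adjusted 0.954 and 0.694). That r was 0.517 within replicates 3 to 6, 0.451 within replicates 1 and 2, 0.675 without those 2 libraries and 0.234 about diet means. In bulk samples, fewer cells of a type and less RNA per cell cannot be told apart.

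The receptors themselves showed no called difference. Nr1h2 had 133 to 163 CPM with a median of 142 in HFD libraries, 135 to 151 CPM with a median of 141 in SW libraries and 139 to 151 CPM with a median of 144 in ND libraries, a fold change of 0.00 (SE 0.05). Nr1h3, which had 444 counts over all 18 libraries, had the highest fold change of the 31, at 0.47 (SE 0.29), with an interval from -0.12 to 1.07 and an adjusted p of 0.458.

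**Figure D2:**
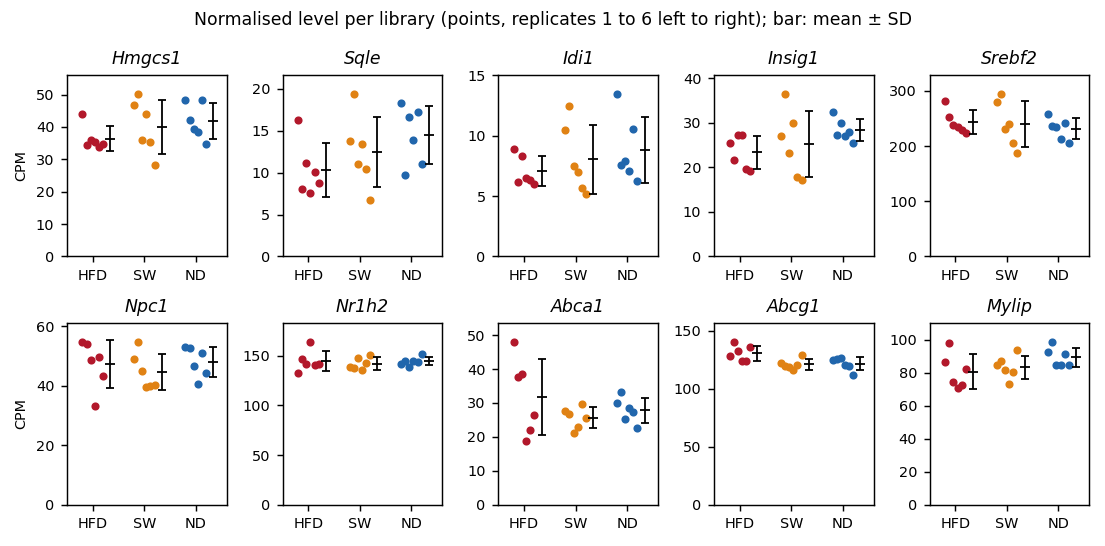
CPM of 10 of the genes in each library, with HFD, SW and ND from left to right, points for the 6 replicates and a bar for mean ± SD. The ranges of the 3 diets overlap in all panels, and Abca1 spreads from 18.7 to 47.9 CPM within HFD.

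The second comparison, SW against ND, asked whether cells still differed from those on normal food once the high fat food had been withdrawn. None of the 31 was called, where 0.0146% of all tested genes were, and 1 of the 31 had an unadjusted p under 0.05, beside 6.81% of all tested genes. DESeq2 and limma-voom called 0 of the 31 here too. All 31 ranges overlapped, and 28 intervals lay within 1.5-fold. The exception at the unadjusted level was Fdps, with 0.813 to 1.66 CPM and a median of 1.10 in SW libraries and 0.962 to 3.15 CPM and a median of 2.22 in ND libraries. Its fold change was -0.90 (SE 0.30) with an adjusted p of 0.390 (edgeR), and the near-identical pseudogenes named above limit that value. The synthesis enzymes had a median of -0.06, with 7 of 18 above 0. That direction turned with a single library, since without SW replicate 6 the median was 0.02 with 10 of 18 above 0, and with only replicates 1 and 2 it was 0.13 with 15 of 18 above 0. Hmgcs1 differed by -0.06 (SE 0.12), Sqle by -0.21 (SE 0.23), Insig1 by -0.17 (SE 0.15), Abca1 by -0.11 (SE 0.19) and Abcg1 by -0.01 (SE 0.05).

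In the third comparison, SW against HFD, the question was what the return to normal food changed relative to staying on the high fat diet. Again 0 of the 31 were called by edgeR, DESeq2 or limma-voom, while edgeR called 0.124% of all tested genes. Unadjusted, 2 of the 31 were under 0.05, beside 11.1% of all tested genes. These were Acat2, higher in SW by 0.20 (SE 0.09) with an adjusted p of 0.391 and 5 of 6 SW libraries above the HFD mean, and Abcg1, lower in SW by -0.11 (SE 0.05) with an adjusted p of 0.383 and 6 of 6 SW libraries below it. The enzymes were above 0 in 12 of 18 cases, with a median of 0.06, against 8 of 18 and -0.05 within replicates 3 to 6 and 9 of 18 without SW replicate 2. Among them Tm7sf2 had 0.23 (SE 0.11). The lowest was Fdps at -0.57 (SE 0.30), with means of 1.13 CPM in SW and 1.66 CPM in HFD libraries. All 6 SW libraries were below the HFD mean, and the near-identical pseudogenes limit this value too. Abca1 was at -0.31 (SE 0.19), with an interval from -0.70 to 0.08. This comparison shares its HFD libraries with the first, so their opposite signs for Acat2, Tm7sf2 and Abcg1 are not separate observations. Over any difference among the 3 diets, 0 of the 31 were called beside 0.898% of all tested genes.

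**Figure D3:**
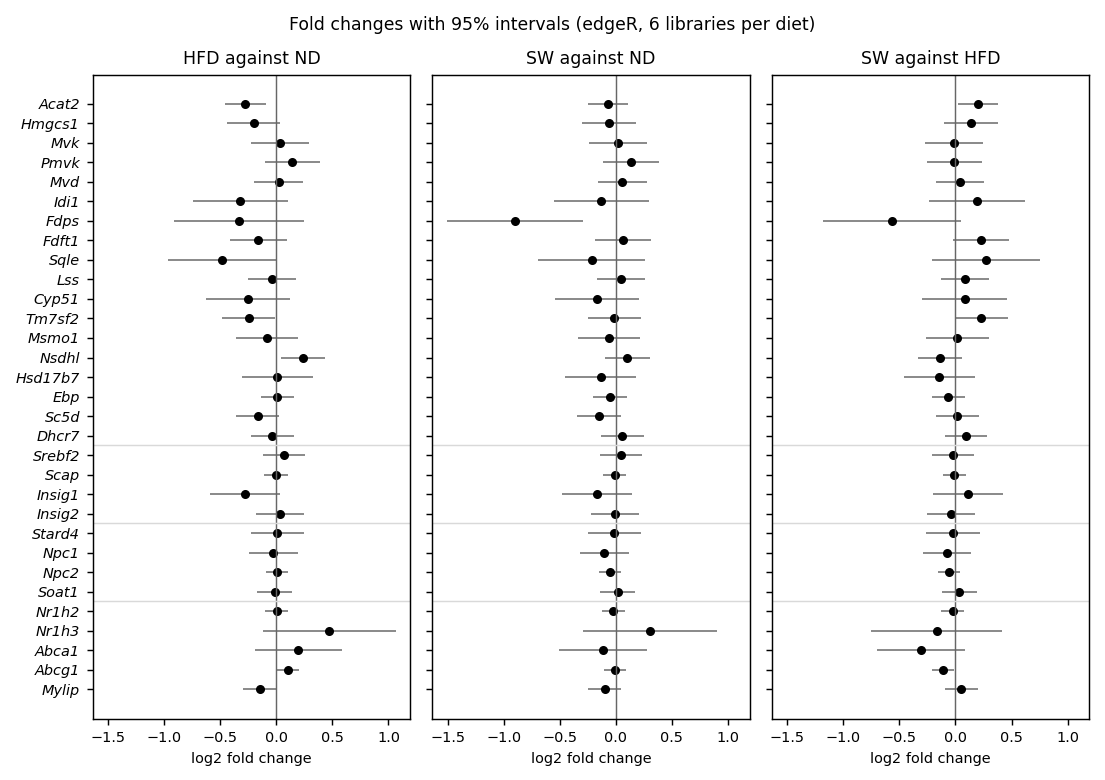
Log2 fold change (points) and 95% interval (lines) of the 31 genes in HFD against ND, SW against ND and SW against HFD, ordered by functional group from top to bottom. Most intervals cross 0, and the widest belong to the sparsely counted Fdps and Nr1h3.

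Other genes of the same pathways, from 4 further lists, gave 0 called genes in each list in each comparison. In HFD against ND, 10 of 15 tested genes of SREBP processing were above 0 (median 0.03), and among them Nploc4 was at 0.14 (SE 0.08, adjusted p 0.429). Of 14 genes of isoprenoid and precursor supply, 9 were above 0 (median 0.02). The prenyl synthase Ggps1 had 44.6 ± 3.8 CPM in HFD cells and 50.9 ± 2.3 CPM in ND cells (SD, n = 6 each), a fold change of -0.19 with an adjusted p of 0.195 (edgeR), and Pdss1 stood at -0.24 with 0.430. Of 23 tested genes of sterol transport, 11 were above 0. There the sterol carrier Gramd1c had 2.91 ± 0.46 CPM in HFD cells and 4.54 ± 1.24 CPM in ND cells, a fold change of -0.64 with an adjusted p of 0.0725, and the lipoprotein receptor Scarb1 was at 0.28 with 0.175.

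In the list of further LXR and oxysterol genes, all 17 tested were above 0 in HFD against ND, beside 7178 of 13690 over all tested genes. The median was 0.11 beside 0.01 over all tested genes. Of the 17, 5 had an unadjusted p under 0.05, beside 14.9% of all tested genes. Whether the 17 vary together was not tested, so their signs may not be separate observations. With DESeq2 size factors 16 of the 17 were above 0 (median 0.11), and without HFD replicates 1 and 4 there were 15 (median 0.11). Without ND replicate 6 there were 14 (median 0.12). With the level of macrophage markers as a covariate there were 15 (median 0.13). Markers of other cells also lay mostly above 0 in HFD against ND: 4 of 5 tested for macrophages (median 0.18), 5 of 6 for dendritic cells (median 0.28), 4 of 6 for monocytes and neutrophils (median 0.54), 4 of 4 for B cells (median 0.29), 2 of 3 for NK cells (median 0.01) and 6 of 6 for red cells (median 2.01). The summed level of the monocyte and neutrophil markers had a median of 542 CPM in HFD libraries and 560.4 CPM in ND libraries, on the other side of that list's median fold change. Most of that sum was 1 gene, Ly6c2, at 395 to 656 CPM over the libraries. The next highest marker, Ccr2, reached at most 31.8 CPM, so the sum says little of the other markers. The part of other cells in the values of the LXR and oxysterol list was not tested beyond the macrophage covariate. Smpdl3a, an LXR target in macrophages, had 96.6 ± 6.7 CPM in HFD cells and 86.7 ± 6.0 CPM in ND cells, a fold change of 0.16 with an adjusted p of 0.163 (edgeR). The oxysterol receptor Gpr183 had 63.7 ± 11.9 CPM in HFD cells and 53.4 ± 3.8 CPM in ND cells, a fold change of 0.25 with an adjusted p of 0.177. In SW against ND, 13 of the 17 were above 0 with a median of 0.03. In SW against HFD, 15 of the 17 were below 0 with a median of -0.06, where Smpdl3a had -0.24 with an adjusted p of 0.0745. SW against HFD and HFD against ND share their HFD libraries, so their opposite sides are not separate observations. In those 2 comparisons a list of 20 proliferation genes lay on the same sides as the 17. It had 19 above 0 in HFD against ND (median 0.27) and 20 below 0 in SW against HFD (median -0.28). In SW against ND, 14 of the 20 were below 0 (median -0.02). Whether these move with the LXR list was not tested.

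Libraries of one diet differed among themselves, and many enzymes varied together. The SD of log2 CPM within diets had a median of 0.20 over the 31 genes and 0.14 over the 9829 tested genes of at least 5 CPM. It was largest for Fdps (0.48), Nr1h3 (0.47), Sqle (0.43), Idi1 (0.39), Abca1 (0.34) and Cyp51 (0.34), and smallest for Abcg1 (0.06), Npc2 (0.07), Nr1h2 (0.07) and Scap (0.08). After the mean of each diet was taken off, the 153 pairs of synthesis enzymes had a median Pearson r of 0.38, and 37.9% of them were above 0.5. Over pairs of all tested genes the median was 0.00 and 5.47% were above 0.5. With the replicate sets 1 to 2 and 3 to 6 centred as well, the median of the enzymes was 0.48. These are descriptions over 18 libraries, and pairs that share a gene are not independent.

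Most of the pathway took part, and a few enzymes did not. The median r with the synthesis enzymes was highest for Insig1 (0.63), Hsd17b7 (0.58), Hmgcs1 (0.57), Srebf2 (0.56) and Cyp51 (0.56). It was 0.13 for Tm7sf2, 0.07 for Ebp and -0.02 for Nsdhl, which are enzymes of the late sterol steps, and 0.00 for Scap and -0.06 for Insig2, which regulate SREBP2. Stard4 had 0.42, while Npc1 and Soat1 had 0.15 each. The LXR group lay on the other side of 0 with the exception of Abca1 (0.04). Mylip had -0.19, Abcg1 -0.30, Nr1h2 -0.34 and Nr1h3 -0.51, and none of the 90 pairs of an enzyme with an LXR or efflux gene exceeded 0.5. With the replicate sets centred as well, the median was -0.49 for Mylip, -0.36 for Abcg1, -0.21 for Nr1h2 and -0.57 for Nr1h3. On that scale it was -0.23 for Scap, -0.25 for Insig2, 0.17 for Stard4, 0.05 for Npc1 and -0.05 for Soat1, while Insig1 kept 0.55 and Srebf2 0.60.

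**Figure D4:**
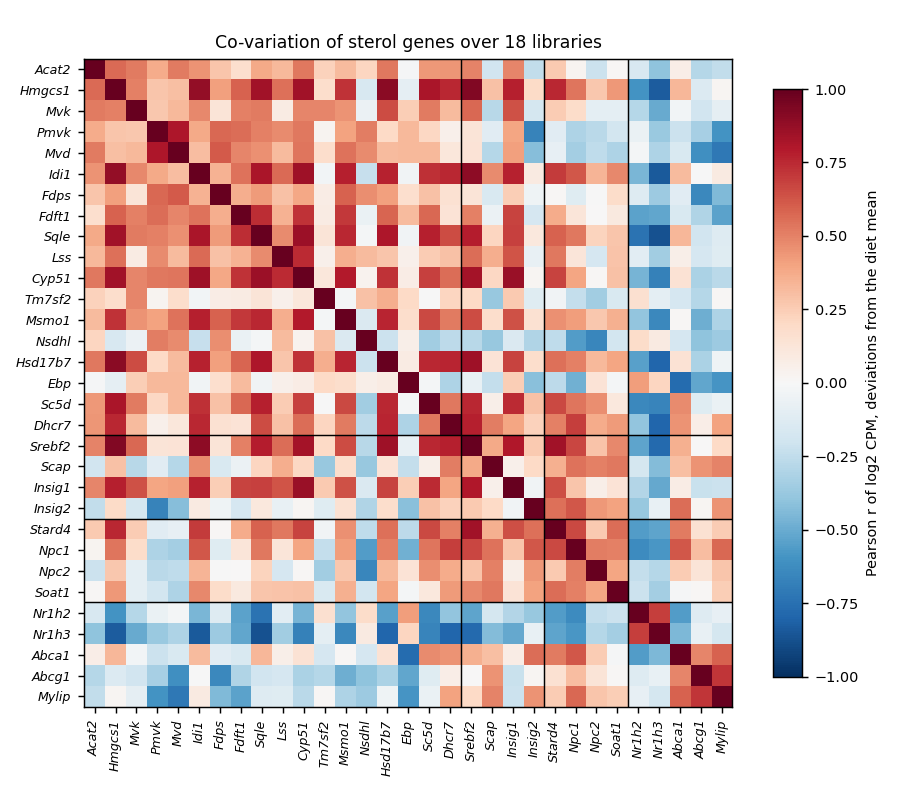
Pearson r of log2 CPM, as deviations from the diet mean, for each pair of the 31 genes over 18 libraries, with black lines between the functional groups. The synthesis enzymes with Srebf2 and Insig1 form a red block, and the rows of Nr1h2 and Nr1h3 are blue across most of it.

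A family of 12 pairs was tested over the 18 libraries with two-sided permutation tests of 100000 resamples, adjusted over the 12. Hmgcs1 and Idi1 had r = 0.890 (adjusted permutation p 0.00012) and Spearman rho = 0.895 (0.00012). For Hmgcs1 and Sqle, r was 0.859 (adjusted permutation p 0.00012) and rho 0.847 (0.00012). Insig1 followed Hmgcs1 with r = 0.797 (0.00020) and rho = 0.785 (0.00072), Srebf2 with r = 0.781 (0.00039) and rho = 0.748 (0.00174), and Stard4 with r = 0.691 (0.00386) and rho = 0.602 (0.0188). Fdft1, squalene synthase, had r = 0.614 (0.0142) and rho = 0.614 (0.0184). Raw permutation p-values for r in these 6 pairs ran between 1.0e-05, the smallest the resamples can give, and 0.00711.

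The relations were then read without SW replicates 2 and 6, which had the levels of Hmgcs1 farthest from the median, and within the replicate sets. Without them r was 0.853 for Idi1, 0.783 for Sqle, 0.672 for Insig1, 0.626 for Srebf2, 0.553 for Stard4 and 0.483 for Fdft1, so the relation with Fdft1 no longer passed. Within replicates 3 to 6 (12 libraries) r was 0.808, 0.855, 0.716, 0.714, 0.680 and 0.772 in that order. Within replicates 1 and 2 (6 libraries) it was 0.930, 0.901, 0.886, 0.552, -0.0103 and 0.861, so Stard4 did not follow Hmgcs1 there.

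The exporter and the lysosomal gene were set against Hmgcs1 in turn. Hmgcs1 and Abca1 had r = 0.223 (adjusted permutation p 0.411) and rho = 0.335 (0.189), with r = 0.0769 within replicates 3 to 6, -0.527 within replicates 1 and 2, and 0.252 without the 2 farthest libraries. Hmgcs1 and Npc1 had r = 0.505 (adjusted permutation p 0.0485) and rho = 0.449 (0.0854). About diet means r was 0.534, and it was 0.270 within replicates 3 to 6, -0.183 within replicates 1 and 2, and 0.384 without SW replicates 2 and 6. Abca1 and Abcg1 had r = 0.536 (adjusted permutation p 0.0371) and rho = 0.484 (0.0655). Their r was 0.425 within replicates 3 to 6, 0.617 within replicates 1 and 2 and 0.634 without HFD replicates 1 and 4, the farthest in Abca1. Abca1 with Mylip had r = 0.450 (0.0795) and rho = 0.544 (0.0367), with 0.203 and 0.160 within the sets and 0.380 without the 2 farthest. Abca1 with Nr1h3 had r = -0.348 (0.186) and rho = -0.381 (0.144), with -0.315 and 0.138 within the sets and -0.016 without the 2 farthest. Insig1 and Insig2 had r = -0.0538 (0.834) and rho = -0.0712 (0.782), with -0.0134 within replicates 3 to 6, -0.864 within replicates 1 and 2 and -0.238 without the 2 farthest.

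One further pair, Hmgcs1 with Nr1h3, was read after its value had been seen. Nr1h3 had 0.951 to 2.67 CPM with a median of 2.13 in HFD libraries, 1.06 to 2.57 CPM with a median of 1.90 in SW libraries and 0.877 to 2.20 CPM with a median of 1.43 in ND libraries. Its lowest library in each diet was one in which Hmgcs1 was highest or second highest. Over the 18 libraries r was -0.848 and rho -0.868 (permutation p 2.0e-05 for each, not adjusted for the choice of the pair). It was -0.769 within replicates 3 to 6, -0.886 within replicates 1 and 2, and -0.832 without SW replicates 2 and 6. With 444 counts over the 18 libraries, Nr1h3 is measured with a large counting error.

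**Figure D5:**
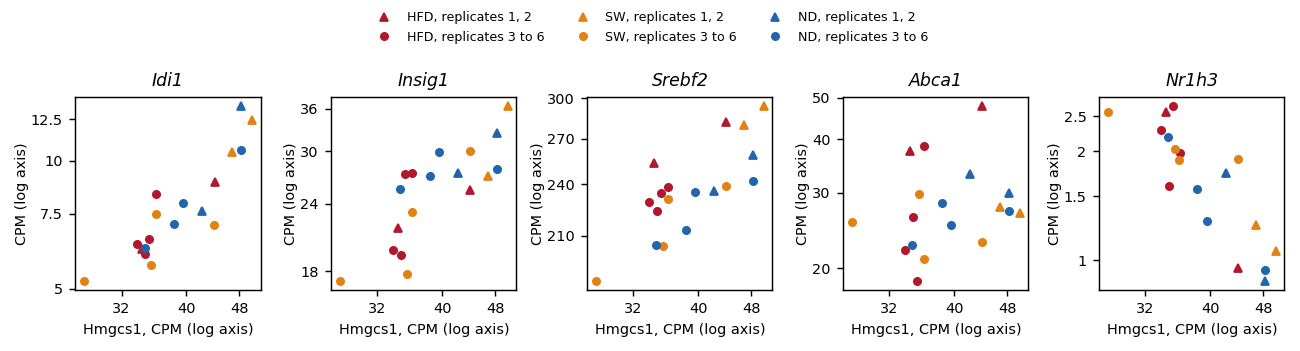
CPM of Idi1, Insig1, Srebf2, Abca1 and Nr1h3 against CPM of Hmgcs1, both on log axes, 1 point per library, coloured by diet, with triangles for replicates 1 and 2. Idi1, Insig1 and Srebf2 climb with Hmgcs1, Nr1h3 descends, and Abca1 shows no such course.

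Summed over the 18 enzymes, single libraries stood out rather than diets. The summed level of the enzymes was 295 to 382 CPM in HFD libraries, 279 to 412 CPM in SW libraries and 329 to 400 CPM in ND libraries. SW replicate 2 was the highest of all, with 16 of 18 enzymes above the diet mean, and SW replicate 6 the lowest, with 1 of 18 above it. HFD replicate 1 had 17 of 18 above its diet mean and HFD replicate 2 had 2, while ND replicate 1 had 16 and ND replicate 2 had 4. Each diet thus had a library with at least 16 enzymes above its mean and one with at most 4. The sums of macrophage and proliferation markers and the total count were set against each of the 31 genes, in 93 relations. The smallest permutation p for r after adjustment over the 93 was 0.954. Relations with the total count had opposite signs in the 2 replicate sets for some genes. For Hmgcs1 r was -0.732 within replicates 3 to 6 and 0.554 within replicates 1 and 2, and for Idi1 -0.657 and 0.609. Nr1h3 had 0.712 and -0.656, while other genes, such as Lss (-0.0955 and 0.249), had weaker relations. The part of total count in the co-variation was not tested.

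Outside the 31, 8 of 9742 genes considered were picked as those most like the mean of the synthesis enzymes in their deviations from the diet mean over the 18 libraries. The 6 named here are Rnf144a (r = 0.805), 1500011B03Rik (0.772), Rhoh (0.763), Upf2 (0.762), Ppp1r7 (0.760) and Trerf1 (0.758). They were the best of many and are given as a description.

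The replicate sets also differed in level. Of the 31 genes, 23 were higher in replicates 1 and 2 than in replicates 3 to 6, and 17 were higher on all 3 diets, or 54.8%, beside 24.6% of all tested genes. The largest differences in mean log2 CPM were those of Idi1 (0.45), Abca1 (0.39), Stard4 (0.34), Npc1 (0.29) and Sqle (0.29), and Nr1h3 had -0.45. Npc1 had 49.1 to 54.5 CPM in the 6 libraries of replicates 1 and 2 and 33.1 to 51.0 CPM in the 12 of replicates 3 to 6. The sets hold the same number of libraries of each diet.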

How the data were processed

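RNA of freshly sorted spleen CD8 T cells was isolated with ISOGEN and a spin column, selected with poly-T beads and primed with random hexamers, per the labels' protocols, which do not state whether strand was kept. Per the submitters' processing notes, fastp served for read processing and the genome builds were GRCm38 and mm10. For the aligner, the counter and the annotation nothing is stated there. The authors deposited, library by library, a raw count of every gene without normalization, and beside it FPKM values, used for levels between genes and for an alternative test. Symbols came from GENCODE M21. CD4 T cells and B cells were not analysed here.

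Counts of all genes were tested by quasi-likelihood F tests in edgeR 4.0.16 under R 4.3.3 (TMM, filterByExpr, robust fit). All 18 libraries shared 1 fit with diet as its factor, at a common biological coefficient of variation of 0.115. P-values were adjusted by Benjamini-Hochberg over the 13690 genes tested, and a gene was called at 0.05. Libraries in the direction of a difference are those beyond the mean of the other diet. Correlations used log2 CPM with a prior count of 2 (Python 3.11.15, scipy 1.17.1). Transcripts were compared with BLAST 2.17.0. The fits and permutation tests were tested on simulated data.

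The genes, lists and comparisons were chosen with earlier results of these data known. Values in every library, as lowest, median and highest, were given for Hmgcs1, Sqle, Idi1, Insig1, Srebf2, Npc1, Abca1, Abcg1, Mylip and Nr1h2 and for the 4 genes with the smallest p in each comparison. For Fdps in HFD libraries only the mean is given. For naming, the rule also took the 8 genes most like the enzymes, which had to average at least 5 CPM, and the 2 genes of each further list with the smallest p in HFD against ND. Of the genes taken, 3 are not reported here. The 32 alternatives included DESeq2 1.42.0, limma-voom 3.58.1, limma on log2 values of FPKM plus 0.1 or plus 1, other filters and size factors, the replicate number as a block, the replicate sets and each library left out. No 2 libraries held identical counts. Intervals cover counting error and the spread between libraries together.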

Additional observations from a re-analysis of the deposited data

Results flagged for a closer look

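In 7 of 93 groups (31 genes on 3 diets), 1 library stood apart from the other 5 by Dixon's test at the 95% level, which chance does in about 1 in 20 groups. HFD replicate 1 was the highest HFD library for 3 enzymes: Hmgcs1 at 44.1 CPM with the next at 36.0, Dhcr7 at 35.6 CPM with the next at 29.96, and Hsd17b7 at 12.4 CPM with the next at 9.49. That library also held 160 CPM of red cell transcripts. SW replicate 6 was the lowest SW library for Acat2 at 18.6 CPM with the next at 23.2, and for Mvd at 25.7 CPM with the next at 31.2. ND replicate 2 was the lowest ND library for Mvd, mevalonate diphosphate decarboxylase, at 24.5 CPM with the next at 30.3. Insig2 was highest in SW replicate 1, at 22.3 CPM with the next at 19.4.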

How the results depend on the processing

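The count of called genes among the 31 stayed at 0 in every comparison under every alternative run but one: leaving out HFD replicates 1 and 4, chosen after seeing the data, called 1 of the 31 in HFD against ND, which was Acat2. Over all tested genes the calls ranged more widely, from 5 to 598 in HFD against ND, 0 to 49 in SW against ND, 0 to 138 in SW against HFD and 5 to 469 for any difference. DESeq2 called 444, 48, 111 and 431 genes and limma-voom 359, 29, 8 and 220 in that order. With the replicate number as a block, 598, 49 and 138 genes were called in the 3 comparisons of diets and 0 of the 31. Libraries with the same number did not deviate together throughout (r from -0.03 to 0.22 over all genes), and not every library correlated best with its own number, so the block is given only as an alternative.

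The median fold change of the 31 moved to 0.10 in SW against ND with only replicates 1 and 2. Leaving out each library in turn gave medians from -0.06 to -0.0042 in HFD against ND, -0.05 to -0.01 in SW against ND and -0.03 to 0.04 in SW against HFD. Over all alternatives they ran from -0.09 to -0.00070 in HFD against ND, -0.07 to 0.10 in SW against ND and -0.06 to 0.09 in SW against HFD. Of 2970 fold changes of single genes under alternatives, 2743 had the sign of the main value and 227 did not. Of them, 34 moved by more than the spread between libraries, 1 newly passed the threshold, and none of the 31 passed it in the main test. Of 72 values for the 12 pairs, 67 had the sign of the main value. Uncalled pairs that changed sign within replicates 1 and 2 were Hmgcs1 with Abca1 (-0.527) and Abca1 with Nr1h3 (0.138). Within replicates 1 and 2 the r of Hmgcs1 turned to -0.0103 with Stard4 and -0.183 with Npc1, and that of Insig1 with Insig2 reached 0.0308 with 1 library left out. The r that no longer passed were those of Fdft1 (0.587 about diet means, 0.483 without 2 libraries), of Srebf2 (0.552 within replicates 1 and 2), of Npc1 (0.270 within replicates 3 to 6, 0.384 without 2 libraries) and of Abca1 with Abcg1 (0.491 about diet means, 0.425 and 0.617 within the sets). Insig1 with Insig2 had r = -0.864 within replicates 1 and 2, with an exact permutation p of 0.0236 that was not adjusted over the 12 pairs. The cause was not tested. Depth limits Fdps and Nr1h3 most.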
